A study of Mus musculus with 20 samples.

Results

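The MHC class II genes described here are H2-Aa, H2-Ab1, H2-Eb1, H2-DMa, H2-DMb1 and Cd74. They were taken as the probe sets whose platform annotation gives 1 of these 6 symbols and no other. This selected 6 genes of 8221 with such a symbol, each with 1 probe set, among 12654 probe sets on the array. All 6 passed the filter on low signal, as did 7204 probe sets in all. The arrays were one-colour Affymetrix mouse arrays hybridised with total RNA from 8-week-old mice, in 4 groups of 5. The groups were leg muscle of mdx mice, leg muscle of control mice, extraocular muscle (EOM) of mdx mice and EOM of control mice. The mdx mouse lacks dystrophin because of a mutation in Dmd and is a model of Duchenne muscular dystrophy. Its limb muscles undergo cycles of fibre death and repair with inflammation, whereas the muscles that move the eye are largely spared. The control leg samples are labelled as gastrocnemius/soleus, while the mdx leg samples are labelled only as leg muscle. Control and mdx arrays also carry different description labels, so a difference of batch or of dissected muscle and the difference of genotype cannot be told apart. Strain, sex and H2 haplotype are not stated in the labels. The labels do not say that the replicates came from separate animals, so p-values refer to the variation among these arrays, part of which may be technical.

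MHC class II molecules present peptides from endocytosed proteins to CD4 T cells. H2-Aa and H2-Ab1 encode the alpha and beta chains of the I-A molecule, and H2-Eb1 encodes the beta chain of I-E. Cd74 encodes the invariant chain, which fills the peptide groove during transport and is then cut away in endosomes, where the H2-DM heterodimer (H2-DMa and H2-DMb1) exchanges the remaining fragment for antigenic peptide. Dendritic cells, B cells and activated macrophages carry these molecules at high levels, and the transactivator Ciita controls their transcription together with RFX and NF-Y proteins bound at the X and Y boxes of the promoters.

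In GRCm38.p6, the genes other than Cd74 lie on chromosome 17 within 197 kb, between positions 34119693 and 34316674. H2-DMa is at chr17:34119693-34139101, H2-DMb1 at chr17:34153191-34160229, H2-Ab1 at chr17:34263227-34269418, H2-Aa at chr17:34282744-34287823 and H2-Eb1 at chr17:34305867-34316674. RefSeq promoter windows on chromosome 17 were matched for 4 of the 6 members. The 250 bases before the annotated start are shown for 3 of these 4 because they carry GNAAC and then ATTGG near the start. H2-Oa is shown because it carries these letters too and is set beside the members further on. H2-Aa is on the minus strand at chr17:34287824-34288073. H2-Eb1 (chr17:34305617-34305866), H2-DMb1 (chr17:34152941-34153190) and H2-Oa (chr17:34092129-34092378) are on the plus strand. Each sequence reads 5′ to 3′ on the strand of the gene, and capitals mark matches to the Y box CTGATTGG or its core ATTGG, the X box CCTNGNNAC, and the X core GNAAC that precedes the Y core.
H2-Aa: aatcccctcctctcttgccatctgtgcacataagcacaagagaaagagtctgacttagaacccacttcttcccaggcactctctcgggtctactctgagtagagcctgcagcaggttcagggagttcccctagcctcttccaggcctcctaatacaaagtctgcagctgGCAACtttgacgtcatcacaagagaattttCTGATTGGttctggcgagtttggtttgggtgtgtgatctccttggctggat
H2-Eb1: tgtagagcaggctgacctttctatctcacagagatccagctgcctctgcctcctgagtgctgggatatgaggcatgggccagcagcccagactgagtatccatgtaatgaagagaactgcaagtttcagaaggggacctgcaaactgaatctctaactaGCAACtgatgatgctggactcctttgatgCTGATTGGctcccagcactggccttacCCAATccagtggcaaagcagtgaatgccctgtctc
H2-DMb1: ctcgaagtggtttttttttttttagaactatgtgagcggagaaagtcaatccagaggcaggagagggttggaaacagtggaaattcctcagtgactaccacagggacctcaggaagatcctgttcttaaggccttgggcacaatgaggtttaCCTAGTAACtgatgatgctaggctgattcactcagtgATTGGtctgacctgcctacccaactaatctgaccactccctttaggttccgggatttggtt
H2-Oa: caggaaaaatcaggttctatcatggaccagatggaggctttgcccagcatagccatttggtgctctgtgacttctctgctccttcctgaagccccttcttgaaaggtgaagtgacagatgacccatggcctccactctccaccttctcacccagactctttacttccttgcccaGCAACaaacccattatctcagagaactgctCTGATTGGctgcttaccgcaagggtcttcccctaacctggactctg

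The Y box CTGATTGG was searched on both strands and occurred in the windows of H2-Aa, H2-Eb1 and H2-Oa, against 4.1% of 32851 mouse promoter windows of 300 bases. Its core ATTGG, which is contained in the Y box, occurred in 37.4% of them, and it was also present in the H2-DMb1 window. The second capital run near the end of the H2-Eb1 sequence is this core on the opposite strand. The X box letters CCTNGNNAC matched H2-DMb1 alone among these 4 genes, against 15.8% of all windows. A looser arrangement was added after the windows had been read, namely GNAAC followed on the same strand, 15 to 30 bases later, by ATTGG. It was found in H2-Aa with 28 bases between, in H2-Eb1 with 27, in H2-DMb1 with 28 and in H2-Oa with 28. Of all windows, 1.37% held it when read on the gene's strand and 2.79% on either strand. These 4 genes are shown for carrying it, so setting them beside that share is not a test. The 2 windows listed for H2-DMa hold no such arrangement, though the second holds the core ATTGG, and they are not shown. The first of them, chr17:34122582-34122881, overlaps the neighbouring gene Brd2, which spans positions 34112019 to 34122814. A match is a description of the letters and not evidence that a factor binds.

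Signals below are the deposited intensities after each array was scaled to a 2% trimmed mean of 500. Differences are on the log2 scale after values under 50 were raised to 50, and were tested with limma and Benjamini-Hochberg adjustment over the 7204 probe sets at 0.05. Between 47.2% and 52.0% of non-control probe sets reached a signal of 200 on each array. On Dmd, the gene mutated in mdx mice, the probe set read 37.3 to 126 on leg mdx arrays against 100.2 to 212 on leg control arrays, and 101.8 to 175 on EOM mdx arrays against 204 to 325 on EOM control arrays. The mdx allele is a point mutation, so these levels do not test it directly. The array labelled leg control 4 stood apart from its group. It read 45.2 for the slow-fibre myosin light chain Myl2, against 8608 to 20215 on the other 4 leg control arrays. It also read 94.9 for the limb gene Hoxd8, against 737 to 1416, and 8892 for the salivary gene Bpifa2, against 78.1 to 828. Bpifa2 read 3029.96 to 4295.5 on EOM mdx arrays, 3578 to 4634 on EOM control arrays and 156 to 306 on leg mdx arrays. The fits were repeated without leg control 4, and without leg controls 1 and 4 together.

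In leg muscle of mdx mice all 6 class II genes were higher than in leg muscle of control mice. The folds ran from 2.18 for H2-Eb1 to 8.76 for H2-Ab1. Of all probe sets tested, 17.9% were called in this comparison and 10.7% were called higher. For 5 of the 6 genes every mdx array lay above every control array, which was so for 8.38% of probe sets. The median log2 difference of the 6 genes was 2.41, against -0.06 over all tested probe sets.

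For both chains of the I-A molecule the groups lay far apart. H2-Aa read 4689, 4247, 5355, 4858 and 4870.1 on the 5 leg mdx arrays, against 702, 666, 706, 854 and 791 on the 5 leg control arrays. Both groups were narrow, and the lowest mdx array lay far above the highest control array. The means were 4804 ± 398 in leg mdx and 744 ± 76.9 in leg control (SD, n = 5 each), a log2 difference of 2.69 (SE 0.19, 6.47-fold, adjusted p = 1.75e-09, limma). The partner chain H2-Ab1 read 1459, 1734, 1989.6, 1488 and 1901 in leg mdx, against 109, 250.4, 334, 273 and 111 in leg control. The mdx arrays were tightly grouped, while the control arrays spread over 3.06-fold, with arrays 1 and 5 lowest. The log2 difference was 3.13 (SE 0.36, 8.76-fold, adjusted p = 1.38e-06, limma), which ranked 21 of the 7204 probe sets ordered from the largest increase down, and H2-Aa ranked 43.

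H2-Eb1, the I-E beta chain, had the smallest difference of the 6. It read 2324, 2713, 3347, 3205 and 2194 in leg mdx, against 960.0, 1329, 1427, 1124 and 1472 in leg control. The groups did not overlap, and the lowest mdx array, number 5, was closer to the control arrays than for the I-A chains. The log2 difference was 1.12 (SE 0.17, 2.18-fold, adjusted p = 3.29e-05, limma), rank 380. The alpha chain of I-E, H2-Ea, was below the filter, with a highest signal of 116 on any array. This probe set cannot show whether an I-E alpha chain was made, and in several common laboratory strains H2-Ea carries a defect.

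The peptide-exchange pair was unequal. H2-DMa read 1315, 1231, 1723, 1224 and 1463 in leg mdx, against 176, 233, 157, 215 and 182 in leg control. Both groups were compact and far apart, with a log2 difference of 2.86 (SE 0.31, 7.24-fold, adjusted p = 5.69e-07, limma). H2-DMb1 read 829.8, 419, 893, 916 and 649 in leg mdx, against 160.4, 258, 404, 452 and 149 in leg control. Here the groups overlapped, since mdx array 2 lay below control array 4. The log2 difference was 1.47 (SE 0.36, 2.77-fold, adjusted p = 0.00545, limma). The H2-DMb1 probe set is of a type whose probes are shared within a gene family, and a further probe set annotated to both H2-DMb1 and H2-DMb2 did not pass the filter, reaching at most 233. The share of the near-identical H2-DMb2 in this signal was not tested.

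The invariant chain gene Cd74 lies apart from the others, on chromosome 18. It read 7047, 6903, 7438, 8160.0 and 7046 in leg mdx, against 1259, 1763, 1680.4, 2034 and 1671 in leg control. Leg mdx was the least variable of the groups for this gene, with a coefficient of variation of 6.98%. The log2 difference was 2.14 (SE 0.20, 4.40-fold, adjusted p = 8.51e-08, limma).

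Without leg control 4 the log2 differences were 2.74 for H2-Aa, 3.25 for H2-Ab1, 1.09 for H2-Eb1, 2.90 for H2-DMa, 1.67 for H2-DMb1 and 2.21 for Cd74. All 6 remained called. Without leg controls 1 and 4 together they ran from 0.95 for H2-Eb1 to 3.02 for H2-Ab1, and the largest adjusted p was 0.0127, for H2-DMb1.

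**Figure D1:**
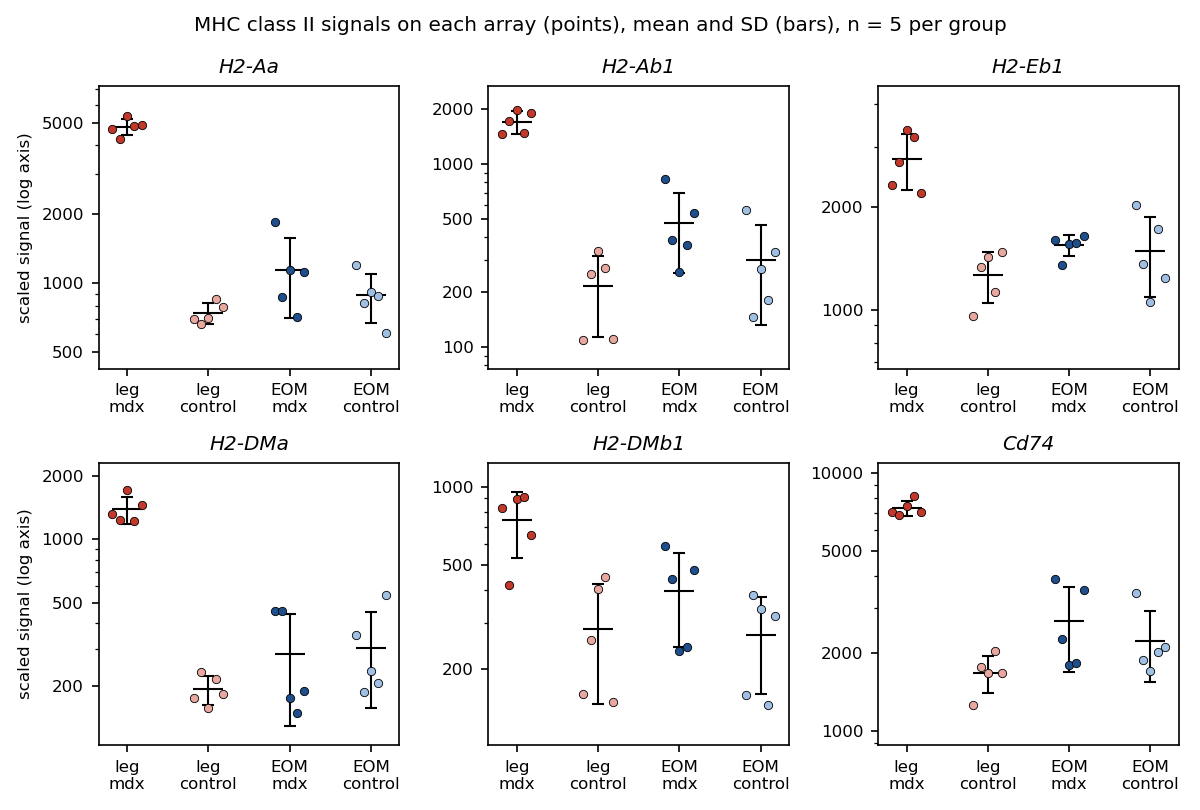
Scaled signal (log axis) of each class II gene on every array, with leg mdx, leg control, EOM mdx and EOM control from left to right; points are arrays and bars the mean and SD of 5. Leg mdx arrays lie above all other arrays for H2-Aa, H2-Ab1, H2-Eb1, H2-DMa and Cd74, while for H2-DMb1 the lowest leg mdx array (419) lies within the other groups.

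The 6 genes did not change by the same amount. For each pair the log2 ratio of the 2 signals was taken on every array and compared between leg mdx and leg control with a two-sided exact permutation test, for which the smallest possible p is 0.00794. Of 15 pairs, 10 passed after Benjamini-Hochberg adjustment over the pairs, as did 10 without leg control 4 and 8 without leg controls 1 and 4. H2-Ab1 exceeded H2-Eb1 by 2.01 on the log2 scale, a 4.02-fold larger change (exact p = 0.00794, adjusted p = 0.0149). H2-DMa exceeded H2-Eb1 by 1.73, H2-Aa by 1.57 and Cd74 by 1.01, each with the same exact p and adjusted p. H2-Eb1 and H2-DMb1 were thus the genes with the smaller changes, and the difference between them, 0.35, did not pass (exact permutation p = 0.397). Cd74 exceeded H2-DMb1 by 0.66, which did not pass either (adjusted exact p = 0.119). H2-Aa exceeded Cd74 by 0.56 and H2-DMa exceeded Cd74 by 0.72, both with an adjusted exact p of 0.0149. Among H2-Aa, H2-Ab1 and H2-DMa no pair passed, with differences of 0.44 (H2-Ab1 over H2-Aa, adjusted exact p = 0.384), 0.16 (H2-DMa over H2-Aa, 0.288) and 0.27 (H2-Ab1 over H2-DMa, 0.391). A ratio of 2 probe sets shows unequal change of their signals, and levels of different probe sets were not compared.

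In EOM no class II gene was called between mdx and control mice (0 of 6), and none had an unadjusted p below 0.05 in limma. Of all tested probe sets 0.0833% were called in this comparison, and 369 had an unadjusted p below 0.05. H2-Aa read 1849, 871, 1139.8, 715 and 1119 in EOM mdx, against 1203, 822, 916, 877 and 608 in EOM control. H2-Ab1 read 834, 387, 259, 365 and 546 in EOM mdx, against 565, 147, 267, 181 and 332 in EOM control. In both genes the groups overlapped widely and array 1 was the highest of each group. The log2 difference was 0.32 for H2-Aa (95% interval -0.08 to 0.72) and 0.73 for H2-Ab1 (-0.02 to 1.48, unadjusted p = 0.0553 and adjusted p = 0.958, limma), the largest of the 6.

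H2-Eb1 read 1603, 1355, 1553, 1567 and 1639 in EOM mdx, against 2021, 1363, 1054, 1722 and 1241 in EOM control. The mdx arrays fell inside the range of the control arrays, with a log2 difference of 0.10 (95% interval -0.25 to 0.44). H2-DMa read 457, 453, 175, 149 and 190.0 in EOM mdx, against 351, 188, 236, 207 and 544 in EOM control. Its mdx arrays fell into a high pair and 3 low arrays, and its log2 difference of -0.15 (-0.79 to 0.49) was the only negative value. H2-DMb1 read 594, 442, 233, 243 and 478 in EOM mdx, against 159, 383, 341, 146 and 319 in EOM control, with a difference of 0.58 (-0.17 to 1.32). Cd74 read 3881, 2282, 1806, 1839 and 3511 in EOM mdx, against 3424, 1890.2, 1706, 2028 and 2118 in EOM control, with a difference of 0.22 (-0.20 to 0.65). For Cd74, arrays 1 and 5 of EOM mdx and array 1 of EOM control were high and the others lay close together.

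The difference of the mdx effects between the 2 muscles was tested directly. It passed for 5 of 6 genes, each with the larger effect in leg. Of all tested probe sets 6.22% were called for this difference, and 4.93% were called with the higher value in leg. The leg effect exceeded the EOM effect by 3.01 for H2-DMa (SE 0.44, adjusted p = 0.000125, limma), by 2.40 for H2-Ab1 (SE 0.51, 0.00541), by 2.37 for H2-Aa (SE 0.27, 1.1e-05), by 1.91 for Cd74 (SE 0.29, 0.000199) and by 1.03 for H2-Eb1 (SE 0.23, 0.00864). For H2-DMb1 the difference was 0.89 with a 95% interval of -0.16 to 1.95 (adjusted p = 0.375, limma). The same 5 genes passed without leg control 4 and without leg controls 1 and 4. The interval of H2-DMb1 includes 0 and also a value as large as that of Cd74.

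**Figure D2:**
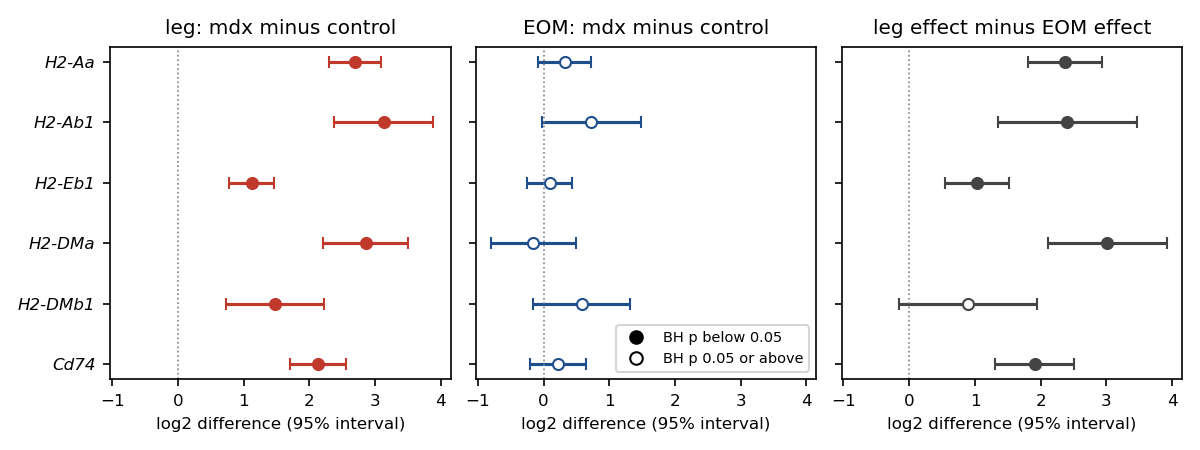
Log2 differences with 95% intervals from limma for mdx minus control in leg, mdx minus control in EOM, and the leg effect minus the EOM effect; filled points have an adjusted p below 0.05. All 6 genes are filled in leg, none in EOM, and 5 of 6 in the difference, where the interval of H2-DMb1 (-0.16 to 1.95) crosses 0.

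Across the 4 groups the mean signal was highest in leg mdx for every class II gene. Between the muscles of mdx mice, EOM minus leg, 5 of 6 genes were lower in EOM, against 18.1% of probe sets called and 8.83% called lower. The log2 differences were -2.45 for H2-DMa, -2.15 for H2-Aa, -1.95 for H2-Ab1, -1.53 for Cd74 and -0.82 for H2-Eb1, with adjusted p-values from 6.31e-08 to 0.00108 (limma). For these 5 genes every EOM mdx array lay below every leg mdx array, which was so for 7.02% of probe sets. H2-DMb1 was at -0.94 with an adjusted p of 0.0753 (limma), and it passed in 4 alternative fits.

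Between the muscles of control mice no class II gene was called (0 of 6, none at an unadjusted p below 0.05, limma), where 17.7% of tested probe sets were. The EOM minus leg differences were 0.56 for H2-DMa, 0.45 for H2-Ab1, 0.38 for Cd74, 0.22 for H2-Aa, 0.21 for H2-Eb1 and -0.05 for H2-DMb1. Their adjusted p-values ran from 0.229 to 0.952, and none was called without leg control 4 or without leg controls 1 and 4, though the sign of H2-DMb1 turned without leg control 4 (0.16). For H2-Aa, H2-Ab1, H2-Eb1 and Cd74 the means therefore stood in the order leg mdx, EOM mdx, EOM control and leg control, with no step after the first called. Gland signal also differed between the muscles. Bpifa2 was higher in EOM than in leg, by 3.95 in mdx mice (adjusted p = 0.000495, limma) and by 3.06 in control mice (0.00524). The amylase gene Amy1 was higher in EOM mdx by 0.94 (adjusted p = 0.024, limma) and was not called between controls (0.56). The part of gland RNA in the class II values of EOM was not tested. H2-DMa had EOM mdx (285) below EOM control (305), and H2-DMb1 had EOM control (269) below leg control (285).

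For 5 of 6 genes the arrays of EOM mdx were more scattered than those of leg mdx, which was not tested. The coefficient of variation was 38.2% in EOM mdx and 8.29% in leg mdx for H2-Aa, 46.8% and 13.9% in the same order for H2-Ab1, and 54.8% and 15.01% for H2-DMa. It was 39.3% in EOM mdx and 28.1% in leg mdx for H2-DMb1, and 36.4% and 6.98% for Cd74. H2-Eb1 was the exception, at 7.16% in EOM mdx and 18.6% in leg mdx. In EOM control the coefficient was 24.2% for H2-Aa, 55.6% for H2-Ab1, 26.2% for H2-Eb1, 48.5% for H2-DMa, 40.6% for H2-DMb1 and 30.6% for Cd74. In leg control it was 10.3% for H2-Aa, 46.9% for H2-Ab1, 17.1% for H2-Eb1, 15.9% for H2-DMa, 48.6% for H2-DMb1 and 16.5% for Cd74. The members moved together on some arrays within a group. EOM mdx array 1 was the highest of its group for 5 of 6 members and lay 0.65 above the group on the log2 scale on average, and EOM control array 1 was the highest for 4. Leg mdx array 3 was the highest of its group for 4 members, and leg control array 4 for 3, while leg control array 1 was the lowest of its group for 3.

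Markers of macrophages moved with the class II genes. Of 17 listed macrophage and monocyte genes, 15 were on the array, 13 were tested and 13 were higher in leg mdx, with a median log2 difference of 2.32. The filter can be met by the 5 leg mdx arrays alone, so it favours genes high in that group, here and in the other lists. Adgre1, for example, read 328 to 876 in leg mdx and at most 180 in leg control. All 13 were also called without leg control 4 and without leg controls 1 and 4. Further tested probe sets of C1qb (0.84), Csf1r (-0.18) and Laptm5 (-0.06) were not called. The 13 called genes included the lysozyme gene Lyz2, with 9099 ± 714 in leg mdx and 599 ± 255 in leg control (SD, n = 5 each, 16.7-fold, adjusted p = 9.9e-10, limma). The lysosomal membrane protein gene Laptm5 was 12.9-fold higher on its brightest probe set. The perforin-like gene Mpeg1 was 8.40-fold and the lysosomal glycoprotein gene Cd68 4.22-fold higher. The summed signal of the 15 genes was 31316 to 43708 on leg mdx arrays and 5188 to 7153 on leg control arrays, 8233 to 14232 on EOM mdx arrays and 8141 to 11173 on EOM control arrays. It was highest on the same array as most class II members in leg mdx (array 3), EOM mdx (array 1) and EOM control (array 1), though not in leg control. The part of this in the class II result was not tested, and in whole muscle fewer cells of a type and less RNA per cell cannot be told apart. Of the 13 genes, 12 also passed for the leg effect minus the EOM effect and 0 for mdx against control in EOM.

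Markers of dendritic cells and B cells, which also carry class II, mostly did not pass. Of 9 dendritic cell genes on the array 5 were tested, and 1 was higher, the integrin gene Itgax (1.22 on the log2 scale, 2.33-fold, adjusted p = 2.7e-05, limma), which macrophages also express. Flt3, the receptor for a dendritic cell growth factor, was at -0.37 and the chemokine receptor gene Xcr1 at -0.52, neither called, and a further Flt3 probe set was at 0.03. In 4 alternative fits 1 gene of the list was called lower. The summed dendritic cell signal was 4413 to 5430 in leg mdx and 3531 to 5548 in leg control, so the ranges overlapped. Of 7 tested B cell genes none was called on its brightest probe set, with Cd79a at -0.40 and Ms4a1 at -0.36 (adjusted p = 0.414 and 0.293, limma), and the summed signal of the 8 on the array was 3066 to 3977 in leg mdx and 3177 to 4544 in leg control. A further probe set of the immunoglobulin heavy chain gene Ighm was lower in leg mdx, at -1.02 (adjusted p = 0.00389, limma), with no overlap of the groups, and another was at -0.18. Of 10 T cell genes on the array 2 were tested. Thy1, also made by fibroblasts, was 3.19-fold higher (adjusted p = 0.0397, limma), a call that was lost in 10 alternative fits, and Cd4 was at 0.09. The defining T cell genes Cd3e, Cd3d and Cd3g stayed below the filter, at no more than 152 on any array. The neutrophil gene S100a8 was 2.65-fold higher (adjusted p = 0.00437, limma), 1 of 4 tested, and of the NK cell genes only Gzmb was tested, at -0.03. None of the 3 skeletal muscle, 4 slow-fibre, 2 limb or 2 gland genes tested was called in leg. Without leg control 4 the numbers called higher were the same for every pathway and marker list, and 1 slow-fibre gene was called lower.

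The tested genes of the machinery that controls class II transcription showed no called difference (0 of 5 tested in leg, limma). Of 8 listed genes 6 were on the array. The RFX subunit genes Rfx5 and Rfxap were not among them, and Creb1 was below the filter. Ciita, the transactivator, read 278 ± 63.0 in leg mdx and 279 ± 46.2 in leg control (SD, n = 5 each), a log2 difference of -0.02 (95% interval -0.65 to 0.61). Its signal lay between 205 and 358 on leg mdx arrays, close to the filter of 200. The NF-Y subunits Nfya, Nfyb and Nfyc differed by 0.40, -0.00 and -0.20. Rfxank, an RFX subunit, was at 723 ± 111 in leg mdx and 1083 ± 199 in leg control, a difference of -0.58 that was not called (adjusted p = 0.154, limma) but passed in 2 alternative fits. For Nfyb and Ciita the sign turned under some alternatives. Of the interferon gamma list, whose cytokine is the classical inducer of class II, 6 of 11 genes on the array were tested and 1 was higher. This was Irf8, a transcription factor of the myeloid lineage, at 642 ± 229 in leg mdx and 199.98 ± 39.1 in leg control (3.12-fold, adjusted p = 0.000772, limma). Ifng itself did not exceed 84.5 on any array, and Irf1, a target of the cytokine, was at 0.33 (adjusted p = 0.382, limma).

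Genes that cut the invariant chain and prepare peptides were mostly higher, with 7 of 8 called in leg and a median log2 difference of 1.89. Ctss, the cathepsin that removes the last part of the invariant chain in antigen-presenting cells, read 8856 ± 756 in leg mdx and 423 ± 88.0 in leg control (SD, n = 5 each, log2 difference 4.41, SE 0.19, 21.2-fold, adjusted p = 6.23e-13, limma). It was also called in EOM, at 1414 ± 363 in EOM mdx and 686 ± 183 in EOM control (2.06-fold, adjusted p = 0.0259, limma), and its leg effect exceeded its EOM effect by 3.37. The asparaginyl endopeptidase Lgmn was 4.94-fold, the cathepsin gene Ctsz 4.39-fold and Ctsl 2.35-fold higher in leg mdx. Ifi30, a thiol reductase for antigen processing, was at 2.47 on the log2 scale. Ctsd, at -0.25, was not called. These proteases also act in lysosomes outside antigen presentation.

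Other class II genes did not pass the test. Of 5 such genes on the array, 2 were tested and none was called. H2-Oa, a chain of the H2-O modulator of peptide exchange, read 241 ± 84.9 in leg mdx and 197 ± 68.9 in leg control (log2 difference 0.27, SE 0.40, adjusted p = 0.697, limma). H2-DMb2 read 259 ± 150.3 in leg mdx and 224 ± 141 in leg control (0.20, SE 0.50, adjusted p = 0.837, limma), and its sign turned without leg control 4. H2-Ob, H2-Ea and H2-Eb2 were below the filter, with highest signals of 211, 116 and 134. H2-Oa carries the Y box and the same GNAAC and ATTGG arrangement as H2-Aa in the sequences above. Its signal was low, at 125 to 337 on leg mdx arrays. The confidence interval of its leg log2 difference was wide, from -0.55 to 1.10 (limma). H2-Oa is shown for carrying these letters, and any relation between the letters and the signals was not tested. The costimulation genes Cd40, Cd80, Cd83 and Cd86 were below the filter, each reaching between 212 and 235 on its highest array.

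Fewer genes of the class I pathway, which presents peptides to CD8 T cells, were called. Of 11 tested genes 4 were higher in leg mdx, with a median log2 difference of 0.72. The class I heavy chain gene H2-D1 was 2.32-fold higher (adjusted p = 0.000533, limma) and H2-K1 1.70-fold (0.00802). Both are read by probe sets whose probes are shared across the class I family. Further H2-D1 probe sets were higher by 1.21 and 1.56 (adjusted p = 0.00176 and 0.000627, limma), and of 2 further H2-K1 probe sets 1 was higher by 0.60 (0.0338) and 1 was at -0.08 and not called. Tapbp, which loads class I with peptide, was 1.54-fold higher (adjusted p = 0.016, limma), and Pdia3, a chaperone of the same complex, was 2.46-fold higher (0.0222). The number called ran from 2 to 7 over all alternatives. It was 4 without leg control 4, 6 without leg control 1, 2 without leg mdx 4 and 3 without leg mdx 3 or 5. The call of Pdia3 was lost in 6 alternative fits and that of Tapbp in 1. No difference between the class I and class II lists was tested.

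**Figure D3:**
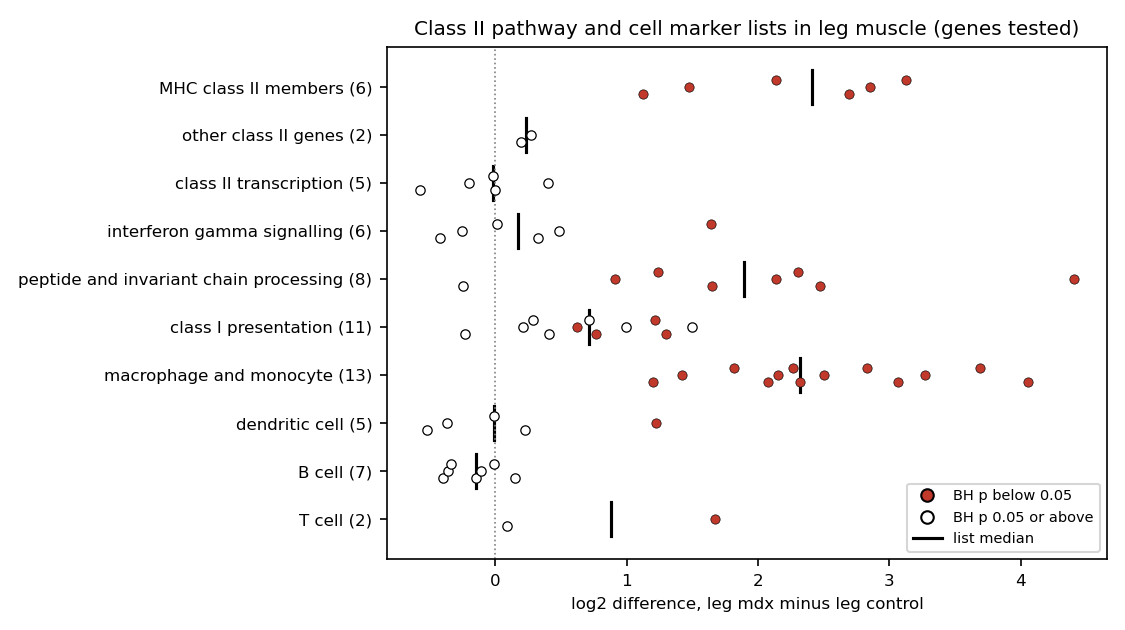
Log2 difference of leg mdx minus leg control for each tested gene of the class II members, the other pathway lists and 4 cell marker lists; filled points have an adjusted p below 0.05, vertical bars are list medians and numbers in brackets count tested genes. The class II members (median 2.41), processing genes (1.89) and macrophage markers (2.32) lie to the right, while B cell markers and class II transcription genes lie around 0.

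All 5 members on chromosome 17 passed in leg muscle, and most genes around them did not. Of 31 other protein-coding genes within 250 kb of a member, 17 were tested, and 2 were higher in leg mdx, Tapbp and H2-K1, with 0 lower and a median of 0.35. Among all tested probe sets 10.7% were higher. Both genes were also called without leg control 4. Between H2-DMb1 and H2-Ab1 lie the class I processing genes Psmb9, Tap1 and Psmb8, at 2.83, 1.99 and 1.64 times their leg control level in leg mdx. None of the 3 was called (adjusted p = 0.0506, 0.115 and 0.103, limma). H2-DMb2, between H2-DMa and H2-DMb1, was at 0.20, as given above.

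**Figure D4:**
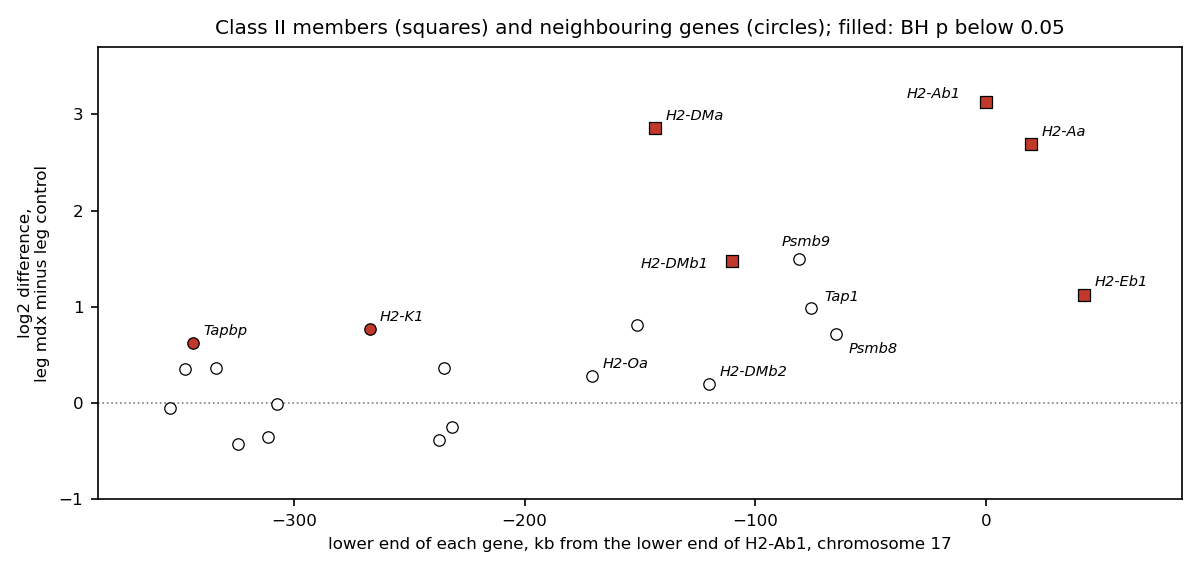
Log2 difference of leg mdx minus leg control against the distance of each gene's lower end from that of H2-Ab1 on chromosome 17, in kb; squares are class II members, circles other tested genes, and filled symbols have an adjusted p below 0.05. All 5 squares are filled, while 2 of 17 circles (Tapbp and H2-K1) are.

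The genes whose pattern was most like that of the class II members were ranked by the root mean square difference, over the 20 arrays, between a gene's centred log2 signal and the mean centred signal of the members. Among 5462 other genes, whose median distance was 1.01, the nearest were C1qc (0.27), C1qa (0.28), Cyba (0.31), Actr3 (0.33), Tmsb10 (0.33), Cd68 (0.34), Cfp (0.35) and Anxa1 (0.36). The members themselves lay at 0.17 for Cd74 to 0.54 for H2-Eb1. C1qa and C1qc encode chains of complement C1q, Cfp encodes properdin of the alternative complement pathway, and Cyba a subunit of the phagocyte NADPH oxidase. Actr3 and Tmsb10 act on actin, and Anxa1 encodes a phospholipid-binding protein. C1qc averaged 5844 in leg mdx, 1664 in leg control, 2026 in EOM mdx and 2151 in EOM control. These genes were chosen for this likeness, so their values are a description.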

How the data were processed

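Total RNA of 20 samples was hybridised to one-colour Affymetrix arrays. The authors deposited 1 linear intensity per probe set and array, from 0.4 to 95476.8, with a 2% trimmed mean of 1500.1 on every array, so they had been scaled before deposit. Per the labels, Affymetrix's standard protocol was used for the mdx arrays; the summarising software was not given in the sources used here. No 2 arrays had identical values (0 pairs). The number of arrays limits the precision.

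Controls aside, 12588 probe sets gave each array a 2% trimmed mean, which was brought to 500. Signals below a floor of 50 were raised to it before log2 was taken, which understates folds of dim genes. The 7204 probe sets reaching 200 on at least 5 arrays were tested in limma 3.58.1 under R 4.3.3 (lmFit, eBayes with intensity trend, 4 groups, 16 residual degrees of freedom, no covariate, tested on simulated data) in 5 contrasts, with Benjamini-Hochberg adjustment within each. By the platform annotation 10298 probe sets have 1 symbol, 363 have several and 1993 are unlisted, hence unnamed here. Each non-member gene was read by its brightest tested probe set. Gene positions and promoters come from RefSeq tables of GRCm38.p6. No list of probe sets later withdrawn by the maker was used.

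The members, gene lists and named genes were chosen with earlier results of these data known. Named are the 6 members, up to 4 genes per list with the smallest adjusted p in leg, the class II transcription genes and the 8 genes nearest in pattern. Other named list members, leg control 4's genes and the looser promoter arrangement were chosen after their values were seen. After group means were removed, same-numbered mdx and control arrays correlated at 0.0124 to 0.18 in leg, with a mean of 0.102. Differently numbered ones averaged -0.0249. In EOM the range was 0.0194 to 0.228 with a mean of 0.099, against -0.0239. Same-numbered arrays were thus more alike on average, and the main fits leave this out. The labels do not say that the numbers pair samples, and a fit with a replicate block is given as an alternative. Alternatives were the deposited scale, quantile normalization, other floors, a pseudocount, other filters, a fit with a replicate block, with array weights, without the trend or with the compared groups alone, gene means, and leaving out each array or leg controls 1 and 4.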

Additional observations from a re-analysis of the deposited data

Results flagged for a closer look

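In EOM control, Cd74 on array 1 (3424) lay apart from the other 4 arrays (1706 to 2118), the only 1 of 24 groups of 5 member signals to exceed Dixon's 95% limit, and chance gives about 1 in 20. The macrophage marker sum was also highest on that array, and its part was not tested.

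The mdx effect differed between leg and EOM (leg effect minus EOM effect, log2, limma adjusted p below 0.05) for 5 members, at 2.37 for H2-Aa, 2.40 for H2-Ab1, 1.03 for H2-Eb1, 3.01 for H2-DMa and 1.91 for Cd74. Among the invariant chain and peptide processing genes it was 3.37 for Ctss, 2.05 for Lgmn, 1.91 for Ctsz and 0.96 for Ctsl. Lgmn (1.45), Ctsz (0.71) and Ctss (0.68) were also higher in EOM control than in leg control (adjusted p up to 0.0157, limma). Ctsl, at 0.22, was not called there. Among macrophage markers the difference of effects was 3.69 for Lyz2, 3.02 for Laptm5, 2.32 for Mpeg1, 2.51 for C1qa, 1.90 for C1qc and 1.83 for Cd68. Of these markers, Lyz2 (1.56) and Laptm5 (0.94) were also higher in EOM control than in leg control, and the others were not called there. The other genes nearest to the members in pattern had 1.88 for Cyba, 1.42 for Actr3, 2.07 for Tmsb10, 1.95 for Cfp and 1.86 for Anxa1. These genes, and C1qa, C1qc and Cd68, were ranked nearest by values that include the leg mdx arrays. Their passing is therefore a description only. The class I genes H2-D1 and H2-K1 had 1.46 and 1.01, the H2-K1 call (adjusted p = 0.0323, limma) being lost in 8 of 31 alternative fits, and the integrin gene Itgax had 1.16.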

How the results depend on the processing

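Each member has 1 probe set, so the fit on gene means repeated the main values. The deposited scale differed from the scale used by factors of 2.97 to 2.99 and could change little. All 6 members were called in leg under all 33 alternatives, 0 in EOM under all 33, and 5 for the difference of effects under all 32, while EOM mdx against leg mdx gave 5 or 6. H2-DMb1 passed there with array weights (-0.97), without leg mdx 2 (-1.13), without EOM mdx 1 (-1.11) and with only the groups compared (-0.94). Unequal pairs numbered 8 to 11. In EOM the count over all probe sets was 6, against 11 with a floor of 100, 3 with no filter, 11 with array weights and 3 to 11 when leaving out 1 array. In leg it was 1287, and 958 without leg controls 1 and 4. The replicate block gave 1351 in leg, 7 in EOM and 458 for the difference, 1351 for EOM control against leg control and 1386 for EOM mdx against leg mdx, and changed no call of a member. Signs turned for uncalled values and the cause was not tested. Nfyb in leg became 4.45e-05 on the deposited scale, 0.10 with array weights and 0.077 without leg controls 1 and 4. Ciita became 0.048 with array weights, and H2-DMa in EOM 0.057. H2-DMb2 became -0.15 without leg controls 1 and 4. Leaving out 1 array gave -0.11 to 0.10 for Nfyb, -0.12 to 0.085 for Ciita, -0.071 to 0.58 for H2-DMb2, -0.37 to 0.085 for H2-DMa in EOM, -0.016 to 0.22 for H2-Eb1 in EOM and -0.24 to 0.16 for H2-DMb1 in EOM control against leg control. Calls that ended were Thy1 in 10 fits (adjusted p up to 0.126, limma), Pdia3 in 6 (up to 0.126), Tapbp in 1 (0.0535) and the H2-K1 difference of effects in 8 (up to 0.0769). Rfxank passed in 2. Genes near the filter, such as Ciita and H2-Oa, are limited by their low signal, and the tissue labels, batch and genotype cannot be told apart.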
